A study of Homo sapiens with 2 samples.

Results

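The genes described here are 10 genes of contractile fibres, muscle and the actin cytoskeleton: ACTC1, TAGLN, TRDN, SORBS2, MYL9, TPM1, TPM2, CALD1, CNN2 and S100A4. They were taken by symbol from tables that list 22474 genes, and all 10 are listed. They had been chosen by their measured levels in these same cells, several for a difference between the 2 states, so the values below describe that choice and no test was made on them. The study compared human embryonic stem cells (ESCs) of line H9 with ffEPSCs, feeder-free extended pluripotent stem cells made by converting H9 ESCs, in single cells sequenced with Smart-seq2, which amplifies whole polyadenylated transcripts. Neither group carries an engineered allele or a drug treatment in the labels. Each state is 1 deposited sample, of 16 ESC and 25 ffEPSC cells, from 1 cell line, and cells of 1 sample are not replicates. The data therefore compare these cells, with no p-value, and the cultures cannot be told apart from the states.

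Contractile fibres slide actin filaments along myosin. ACTC1 is the actin of heart muscle and of embryonic skeletal muscle. Tropomyosins such as TPM1 and TPM2 lie along the filament, caldesmon (CALD1) and the calponins (CNN2) bind it and restrain myosin, transgelin (TAGLN, also called SM22) cross-links it in smooth muscle, and MYL9 is a regulatory light chain whose phosphorylation switches smooth muscle and non-muscle myosin on. TRDN encodes triadin, which holds the calcium release channel of the muscle calcium store together with its calcium-binding protein. SORBS2 is an adaptor at stress fibres, focal adhesions and the Z-discs of muscle, and S100A4 is a small calcium-binding protein that binds the heavy chain of non-muscle myosin. Many of these genes are classical targets of serum response factor (SRF), which binds a sequence called the CArG box with its actin-sensing partners MRTFA and MRTFB.

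The CArG box is the sequence most often named for these genes, so the upstream stretches of the members that carry one are shown. Of the 10 genes, 8 have RefSeq promoter windows (GRCh38.p14, 21 windows of 300 bases, from 250 before to 50 after a start), while TAGLN and MYL9 have none here. A CArG box, searched on both strands, was present in 2 of the 21 windows, one of ACTC1 and one of CNN2, against 1.29% of all 35116 windows. The 250 bases before each of these starts follow, 5′ to 3′ on the strand of the gene, with the CArG box in capitals. ACTC1 is at chr15:34795550-34795799 on the minus strand, with the box 109 to 100 bases before the start, and CNN2 at chr19:1026358-1026607 on the plus strand, with the box 89 to 80 bases before it.
ACTC1: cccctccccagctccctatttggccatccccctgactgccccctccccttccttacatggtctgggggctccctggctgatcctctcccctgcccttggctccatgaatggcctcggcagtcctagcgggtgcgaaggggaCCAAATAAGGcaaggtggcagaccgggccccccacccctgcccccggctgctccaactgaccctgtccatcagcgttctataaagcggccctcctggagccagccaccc
CNN2: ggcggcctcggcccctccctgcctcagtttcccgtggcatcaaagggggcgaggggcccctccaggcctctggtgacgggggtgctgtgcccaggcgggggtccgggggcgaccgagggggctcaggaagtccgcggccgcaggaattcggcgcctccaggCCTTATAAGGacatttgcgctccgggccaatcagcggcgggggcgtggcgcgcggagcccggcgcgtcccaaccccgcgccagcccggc
These 2 genes behaved differently: ACTC1 was 24.0-fold lower in ffEPSCs and CNN2 1.35-fold lower. Neither box overlapped a match to any of 3 further motifs searched on both strands. The muscle motif MCAT, searched as CATTCC, was in 4 of the 21 windows (of ACTC1, CALD1 and SORBS2) and in 14.03% of all windows. The SP1 motif of GC-rich promoters, searched as GGGCGG, was in 7 of the 21 windows and in 44.95% of all. Those 7 windows belong to ACTC1, CALD1, CNN2, TPM1 and TPM2. The core promoter element searched as TATAAA was in 4 of the 21 windows (of ACTC1, CALD1, S100A4 and SORBS2) and in 11.5% of all. A match is a description of the sequence, and factor binding was not measured.

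Each cell carried between 11714517 and 19965639 gene counts in ESCs and between 12507469 and 17811209 in ffEPSCs. Levels are CPM, a gene's counts scaled to a total of 1000000 gene counts, for a cell or for all cells of a state summed, and each ratio is the log2 of the ffEPSC level over the ESC level, 1 CPM being added to both. Values of different genes are not divided by length, so levels are compared between states and not between genes. Column names carry a set number, whose meaning the sources used here do not give: ESC cells are in sets 1 and 3 (7 and 9 cells), and ffEPSC cells in sets 1 to 4 (3, 9, 2 and 11). Of the 16 ESC cells, 4 had under 15000000 counts. In those 4 POU5F1, the core pluripotency factor, was at 63.5 to 218 CPM, against 496 to 1310 in the other 12 and 518 to 1388 in ffEPSC cells. The 4 cells thus stand apart, and results that rest on them are given without them as well. The ffEPSC cell with the fewest counts, 12507469, had POU5F1 at 1133 CPM and CNN2 at 270. What sets the 4 ESC cells apart was not tested. All 7 pluripotency markers were listed, with a summed level of 1293 to 5271 CPM per ESC cell and 3191 to 5071 per ffEPSC cell. Genes on chromosomes 5, 11, 14, 20 and 22 were raised as a whole in ffEPSCs (median ratios 0.31 to 0.48, against at most 0.09 on the other autosomes). TAGLN (chromosome 11, median ratio of its genes 0.34) and MYL9 (chromosome 20, 0.39) lie on such chromosomes and the other 8 do not.

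The 4 genes with the widest gaps, SORBS2, S100A4, TRDN and ACTC1, were present in ESCs and near 0 in most ffEPSC cells. TAGLN, MYL9 and CALD1 were lower in ffEPSCs but still detected in most or all of those cells. TPM2 and CNN2 were lower by less than 2-fold, and TPM1 was 1.29-fold higher. In all, 7 of the 10 genes were lower by 2-fold or more and 0 were higher by that much. Of the 10825 genes at 5 CPM or more in either state, 5.84% were that much lower and 8.3% that much higher. Their median ratio was -1.44, beside 0.04 for all these genes. Since the genes were chosen on this contrast, these shares say nothing about contractile genes as a class. Without the 4 shallow ESC cells the count was 5, with CALD1 at -0.90 and MYL9 at -0.99. Within set 1, 6 of the 10 were at least 2-fold lower (background 11.3%), and within set 3, 6 (background 14.8%), the latter with only 2 ffEPSC cells. No cell of ffEPSCs reached the lowest ESC cell for 2 genes, SORBS2 and S100A4, a separation that 0.111% of all genes showed.

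**Figure D1:**
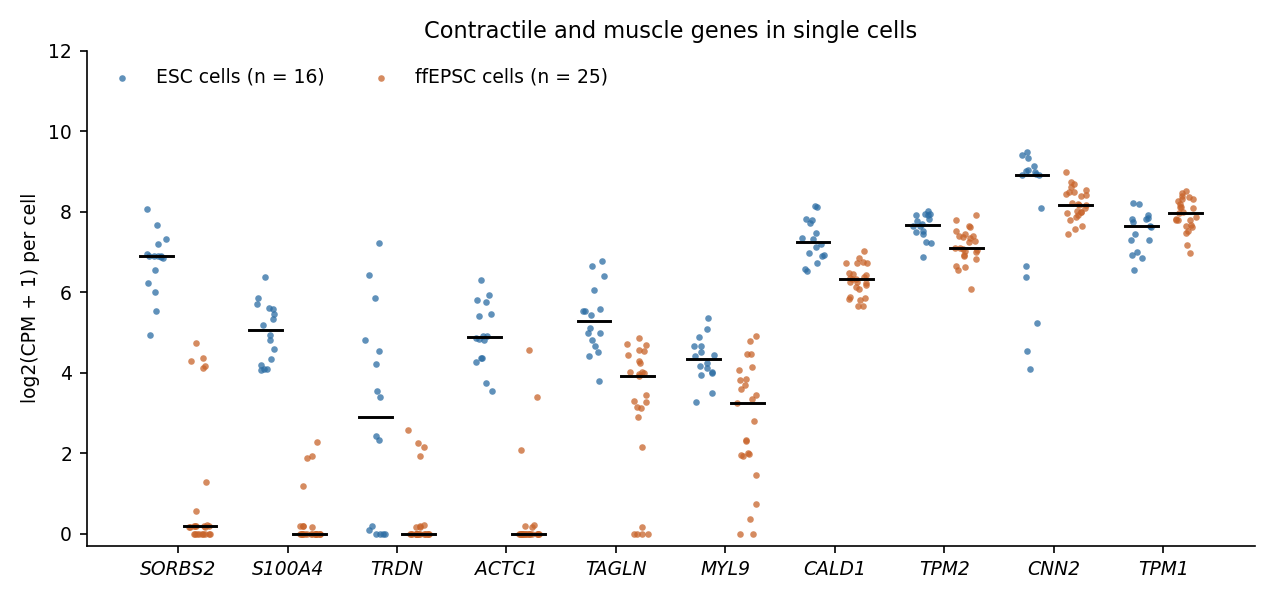
Level of each of the 10 genes in single cells, as log2(CPM + 1) on the vertical axis. Points are cells (16 ESC, 25 ffEPSC), black bars are medians over cells, and genes are ordered by their pooled ratio from the lowest on the left. The SORBS2 and S100A4 points of the 2 states do not overlap, while those of TPM1, TPM2 and CNN2 share most of their range.

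SORBS2, the stress fibre and Z-disc adaptor (ENSG00000154556, chr4:185585444-185956652, minus strand), ranged over ESC cells from 29.7 CPM through a median of 119 to 265. In ffEPSC cells it ranged from 0 through 0.133 to 25.8 CPM. Every ffEPSC cell was below every ESC cell. Summed over cells it was at 120 and 4.004 CPM, 29.9-fold lower (95% interval 28.4 to 31.5, exact conditional binomial) and a log2 ratio of -4.59. Such intervals cover the counting of reads, which are not independent molecules, and not the spread between cells. At 1 CPM or more SORBS2 was found in 6 ffEPSC cells, at 1.43 to 25.8 CPM and all in sets 2 and 4. In sets 1 and 3 its summed ffEPSC level was 0.0923 and 0.117 CPM, and the ratios within those sets were -6.67 and -6.84.

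ACTC1, the cardiac actin (ENSG00000159251, chr15:34788095-34795726, minus strand), was detected in all 16 ESC cells, from 10.7 CPM through 28.6 to 78.2. In ffEPSCs the lowest and the median cell were at 0 and the highest at 22.6 CPM. Of the 25 ffEPSC cells, 24 lay below the lowest ESC cell, and 1 lay within the ESC range. The summed levels were 34.7 and 1.45 CPM, 24.0-fold lower (21.98 to 26.2), with a log2 ratio of -3.87. Only 3 ffEPSC cells had 1 CPM or more, and those 3 supplied 98.8% of the summed CPM. ACTC1 shares most of its coding sequence with other actins, so reads assigned to it are uncertain. The cytoplasmic actins ACTB and ACTG1 had ratios of -0.27 and -0.10, and the part of shared reads was not tested.

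TRDN, triadin of the muscle calcium store (ENSG00000186439, chr6:123216339-123637093, minus strand), was uneven within ESCs. Its ESC cells ran from 0 CPM through 6.92 to 148, with 4 cells at 0 and 10 cells at 1 CPM or more. The ffEPSC cells ran from 0 through 0 to 4.96 CPM, so the states overlapped at the low end. The summed levels were 27.1 and 0.593 CPM, 45.7-fold lower (39.99 to 52.5), a log2 ratio of -4.14. A single ESC cell held 38.4% of the summed ESC CPM, and without the ESC cell with the highest level the ratio was -3.54. TRDN ran from 0 to 10.6 CPM in the 4 ESC cells of low depth and from 0 to 148 CPM in the other 12. It was at 13.96 CPM in ESC cells of set 1 and 37.2 in set 3.

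S100A4, the myosin-binding S100 protein (ENSG00000196154, chr1:153543613-153550136, minus strand), was present in every ESC cell, from 15.8 CPM through 32.4 to 81.6. In ffEPSC cells it ran from 0 through 0 to 3.88 CPM, and no cell overlapped the ESC range. The summed levels were 34.2 and 0.460 CPM, 74.3-fold lower (63.9 to 86.9), which is the largest linear fold among the 10 genes. On the log2 scale with 1 CPM added its ratio was -4.59, like that of SORBS2, because the added 1 CPM shrinks folds of genes near 0. In ffEPSCs 4 cells had 1 CPM or more.

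Each of SORBS2, ACTC1, TRDN and S100A4 was kept in only a few ffEPSC cells. At 1 CPM or more, 6 cells carried SORBS2, 3 ACTC1, 4 TRDN and 4 S100A4. Of the 25 cells, 12 carried none of the 4 genes, 9 carried 1 and 4 carried 2, and 0 carried 3 or 4. The sharing expected for unrelated genes was not computed, so no relation between the 4 genes is read from these counts. In ESCs, SORBS2, ACTC1 and S100A4 were each at 1 CPM or more in all 16 cells. With every cell thinned to 11000000 counts, reads were found in 16 ffEPSC cells for SORBS2, 8 for TRDN, 8 for S100A4 and 5 for ACTC1, against 16, 8, 8 and 6 before thinning. If counts were independent, a count of 0 over the whole state would allow up to 3 counts, or 0.00802 CPM in ffEPSCs. Most non-zero counts were even, so fragments are fewer than counts and the true limit is higher.

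TAGLN, the smooth muscle cross-linker (ENSG00000149591, chr11:117199321-117204782, plus strand), was at 12.8 CPM in the lowest, 37.9 in the median and 108 in the highest ESC cell. The ffEPSC cells were at 0, 14.1 and 28.1 CPM. No ffEPSC cell exceeded the ESC median, 13 lay within the ESC range and 12 below it. The summed levels were 47.1 and 12.5 CPM, 3.77-fold lower (3.64 to 3.899), a log2 ratio of -1.83 on a chromosome whose genes were on the whole higher. Subtracting that chromosome's median gave -2.17. The gene overlaps PCSK7 on the other strand (13.1 and 17.8 CPM), and the sources used here do not say whether counting used strand.

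MYL9, the regulatory light chain (ENSG00000101335, chr20:36541484-36551447, plus strand), was at 8.58, 19.1 and 40.04 CPM in the lowest, median and highest ESC cell. In ffEPSCs these values were 0, 8.42 and 29.2 CPM, and 4 of the 25 cells exceeded the ESC median. Summed, it was at 20.4 and 9.32 CPM, 2.19-fold lower (2.09 to 2.28), a log2 ratio of -1.05. The size depended on the set: ffEPSC levels were 18.5 CPM in set 1, 5.40 in set 2, 1.59 in set 3 and 11.73 in set 4, while ESC levels were 21.5 and 19.5 in sets 1 and 3. Within set 1 the ratio was -0.21 and within set 3 it was -2.99. Without the ESC cell with the highest level the ratio was -0.97, just inside 2-fold. The relatives MYL12A and MYL12B, non-muscle light chains close in sequence to MYL9, were at ratios of -0.64 and -0.36, and reads shared with them could be assigned either way. MYL9 also overlaps DLGAP4-AS1 on the other strand (0.128 and 2.58 CPM), with the use of strand unknown.

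CALD1, caldesmon (ENSG00000122786, chr7:134744252-134970728, plus strand), was at 91.4, 152 and 280 CPM in the lowest, median and highest ESC cell and at 49.5, 79.0 and 128 CPM in ffEPSCs. All 25 ffEPSC cells lay below the ESC median and 19 below the lowest ESC cell. The summed levels of 161 and 79.8 CPM gave 2.02-fold (1.99 to 2.05) and a log2 ratio of -1.003, so CALD1 sat on the 2-fold line. It was inside the line without the 4 shallow ESC cells (-0.90), and without the ESC cell with the highest level (-0.94). Counts are per gene and join the smooth muscle and non-muscle isoforms of caldesmon.

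CNN2, the calponin of non-muscle and smooth muscle cells (ENSG00000064666, chr19:1026581-1039068, plus strand), had a wide spread in ESCs (coefficient of variation 0.657 over cells, beside 0.204 for TPM2 and 0.269 for CNN2 in ffEPSCs). Its ESC cells ran from 15.99 CPM through 484 to 713, and its ffEPSC cells from 174 through 287 to 506. All 25 ffEPSC cells thus fell inside the ESC range, although 24 of them were below the ESC median. The summed levels were 412 and 305 CPM, 1.35-fold lower (1.34 to 1.36), a log2 ratio of -0.43. Without the 4 shallow ESC cells the ESC level was 501 CPM and the ratio -0.72. CNN3, the related acidic calponin, was at 681 and 455 CPM (-0.58), and CNN1, the smooth muscle calponin, was low in both states at 9.02 and 4.34 CPM (-0.91).

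The tropomyosins differed by less than 2-fold, and in opposite directions. TPM2 (ENSG00000198467, chr9:35681992-35690121, minus strand) was at 115, 203 and 260 CPM in the lowest, median and highest ESC cell and at 66.7, 136 and 241 CPM in ffEPSCs, with 23 of 25 ffEPSC cells below the ESC median. Its summed levels were 204 and 148 CPM (ratio -0.46). TPM1 (ENSG00000140416, chr15:63042632-63071915, plus strand) was at 93.1, 198 and 297 CPM in ESCs and at 125, 248 and 363 CPM in ffEPSCs, with 20 of 25 ffEPSC cells above the ESC median. Its summed levels were 192 and 248 CPM, a ratio of 0.37 overall and 0.35 within set 1 but -0.07 within set 3. The other tropomyosin genes TPM3 and TPM4 had ratios of 0.04 each. The genes of this family produce many isoforms with shared stretches, and gene counts do not separate them.

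**Figure D2:**
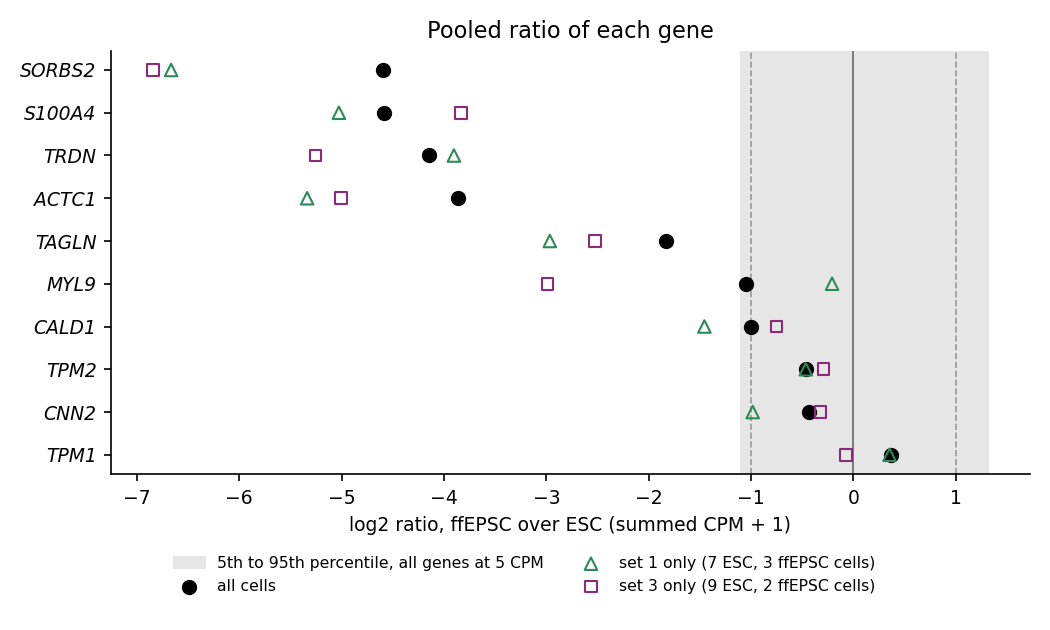
Log2 ratio of ffEPSC over ESC for each of the 10 genes (horizontal axis, summed CPM + 1), over all cells (filled circles), within set 1 (triangles) and within set 3 (squares). The grey band spans the 5th to 95th percentile of all genes at 5 CPM or more (-1.10 to 1.31) and dashed lines mark 2-fold. MYL9 is the gene whose sets lie farthest apart, at -0.21 and -2.99, and TPM1 changes sign in set 3.

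Taken over all lists, the other genes did not share this pattern, though the smooth muscle and S100 lists leaned lower, as given below. A total of 9 lists of muscle, actin, adhesion, SRF and S100 genes hold 158 genes besides the 10, of which 127 are listed and 101 reached 5 CPM in either state. Of those 101, 6 (5.94%) passed 2-fold downward in ffEPSCs and 8 (7.92%) upward, shares near those of all genes (5.84% and 8.3%). Of the 6 lower genes, 3 are of the S100 family and not of the contractile apparatus. The median ratio of the 101 genes was -0.10.

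Among smooth muscle genes, 7 besides the described ones reached 5 CPM, with 1 lower, 1 higher and a median of -0.87. The lower gene was PDLIM3, a Z-disc and stress fibre protein (5.45 and 1.59 CPM, ratio -1.32), and the higher one CSRP1, a LIM protein of smooth muscle (0.143 and 10.5 CPM, 3.34), both named after their values were seen. Within sets 1 and 3 CSRP1 had ratios of -0.02 and -0.31, so its higher level came from ffEPSC cells of sets 2 and 4, which hold no ESC cells. The other genes of this list were mostly lower within sets 1 and 3, which hold 3 and 2 ffEPSC cells. PDLIM3 was at -2.74 and -1.67 there, CNN1 at -3.88 and -2.58, and ACTG2 at -3.81 and -2.29. PDLIM7 was at -1.21 and -0.84, SYNPO2 at 0.09 and -2.33, and SMTN at 0.88 and -0.36. ACTG2, PDLIM7, SYNPO2 and SMTN were named after their values were seen. The alpha smooth muscle actin gene ACTA2 is not listed, and MYH11, the smooth muscle myosin heavy chain, was at 0.603 and 0.529 CPM. Of 30 sarcomere genes 16 are listed. Besides ACTC1, 7 of them reached 5 CPM. TTN, the giant spring protein titin, was lower (26.4 and 11.9 CPM, -1.09). It was at 44.7 CPM in the 4 shallow ESC cells, and without them it was lower by less than 2-fold. NEB, nebulin, was higher (3.69 and 11.1 CPM, 1.36, but -0.27 within set 1, named after its value was seen). None of the 5 other calcium store genes at 5 CPM passed 2-fold, and their median was -0.23 where TRDN was at -4.14.

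In the cytoplasmic actin and myosin list, none of 16 genes was lower by 2-fold and 2 were higher, and the median was 0.04. One of the higher genes was FLNC, a muscle filamin that cross-links actin (1.02 and 10.7 CPM, 2.53, named after its value was seen). MYH9, the non-muscle myosin heavy chain that S100A4 binds, was at 0.35, and TAGLN2, the non-muscle relative of TAGLN, at 0.64. None of 19 genes of actin monomer and filament turnover passed 2-fold in either direction. Of the adhesion adaptors besides SORBS2, 17 reached 5 CPM. The adhesion protein TNS3 was higher in ffEPSCs (8.34 and 20.3 CPM, 1.19), and the LIM protein FHL2 was lower (64.4 and 28.1 CPM, -1.17).

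The factors above many of these genes differed by less than 2-fold: SRF was at 9.95 and 15.3 CPM (0.58), MRTFA at 12.98 and 19.0 (0.52) and MRTFB at 26.8 and 17.3 (-0.61). Of 13 genes in the list of these factors and their targets, FHL2 was at least 2-fold lower and FOS, an immediate early SRF target on raised chromosome 14, at least 2-fold higher (17.2 and 46.5 CPM, 1.38). The list's median was 0.04.

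Listed genes of the S100 family were lower in ffEPSCs along with S100A4. Besides S100A4, 5 of its genes reached 5 CPM, all 5 had ratios below 0 and 3 were at least 2-fold lower. Of all genes at 5 CPM or more in either state, 5.84% were that much lower, and their median ratio was 0.04. S100A6 and S100A16 passed the floor through their ESC levels alone, and such genes can only be lower in ffEPSCs. S100A16 was at 45.8 and 4.94 CPM (-2.98), S100A6, calcyclin, at 22.3 and 2.04 CPM (-2.94) and S100A11 at 466 and 118 CPM (-1.97). S100A10, the annexin partner, was at 282 and 197 CPM (-0.52). S100A13 was at 12.1 and 9.71 CPM (-0.29). All 6 genes, S100A4 included, lie on chromosome 1, whose genes had a median ratio of -0.08. S100A11 was higher in the 4 shallow ESC cells (519 to 1496 CPM) than in the other 12 (205 to 464), whose summed level of 309 CPM was still above the 118 CPM of ffEPSCs. The list was drawn up with S100A4 already known to be lower.

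**Figure D3:**
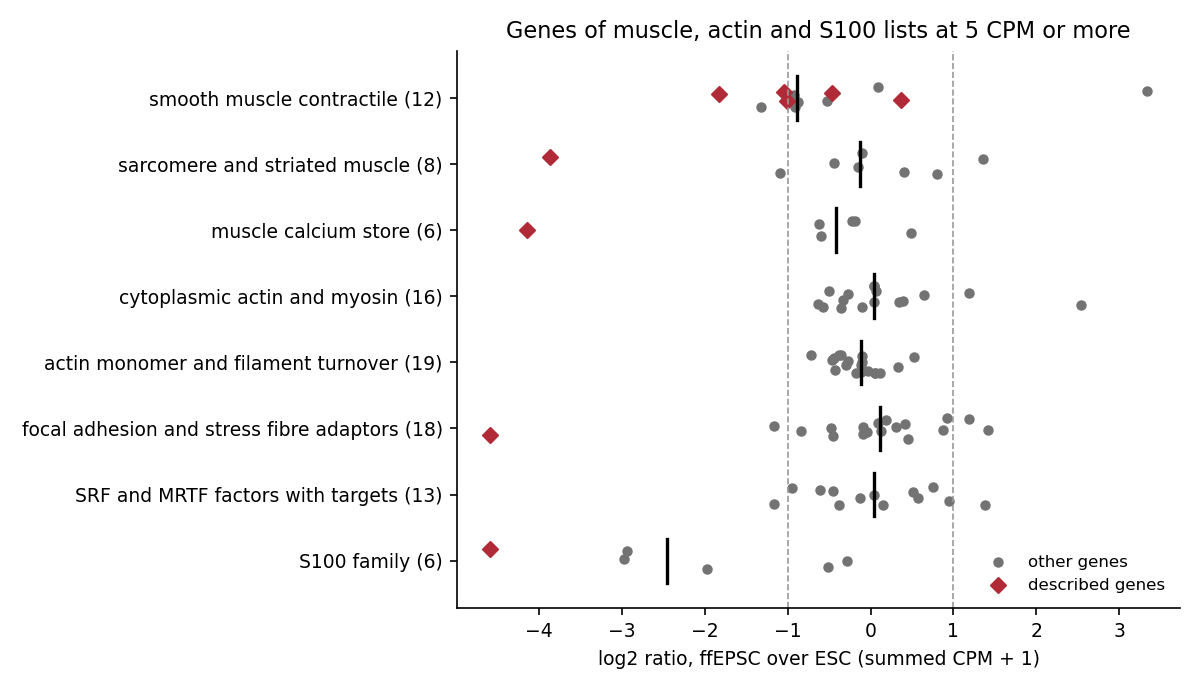
Log2 ratio of ffEPSC over ESC (horizontal axis, summed CPM + 1) for every gene at 5 CPM or more in 8 of the lists, with the number of such genes in brackets. Diamonds are the described genes that a list holds (CNN2 is in none), grey points are other genes, black bars are medians with all genes of a list included and dashed lines mark 2-fold. ACTC1, TRDN, SORBS2 and S100A4 stand at the far left of their lists, and the S100 family is the list with the lowest median, -2.45.

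Markers of muscle progenitors were at or near 0 in ESCs. Of 9 cardiac and mesoderm progenitor genes 3 are listed and none reached 5 CPM. Their summed level was 0 to 0.148 CPM per ESC cell and 0 to 29.9 per ffEPSC cell, with GATA4 and NKX2-5 at 0 in all ESC cells. Of 7 skeletal myogenic genes DES alone is listed, at 1.85 and 0.690 CPM. Of 8 smooth muscle and pericyte genes 6 are listed, with a summed level of 0 to 75.0 CPM per ESC cell and 0 to 75.4 per ffEPSC cell. Fibroblast and feeder genes were mixed: 6 of 9 are listed, 4 reached 5 CPM and 2 of these were at least 2-fold lower. Their summed level was 569 CPM in ESCs and 352 in ffEPSCs, and it ran from 84.2 to 858 CPM per ESC cell and from 173 to 666 per ffEPSC cell. The lower genes were THY1, which pluripotent cells also express and which made up most of the ESC sum, at 382 and 169 CPM (-1.18), and the collagen gene COL1A1 at 8.67 and 2.28 CPM (-1.56). COL1A2 was at 19.2 and 15.3 CPM (-0.31) and the matrix gene FBLN1 at 155 and 161 CPM (0.06), while COL3A1, DCN and LUM are not listed. Within sets 1 and 3 COL1A2 was at -2.14 and -4.28, unlike its summed value over all cells. There THY1 was at -2.49 and -1.29, COL1A1 at -2.22 and -0.72, and FBLN1 at 0.17 and -0.22. The part of fibroblast and feeder genes in the members' values was not tested.

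The 10 genes varied together only weakly over ESC cells. Over the 45 pairs, the median Spearman rho of CPM across the 16 cells was 0.21, beside 0.03 over all pairs of the 10026 genes at 5 CPM in ESCs. A rho of 0.5 or more was reached by 3 pairs (6.67%), where 6.35% of all pairs reached it, and a rho of -0.5 or less by 3 pairs, where 4.88% did. The ESC cells come from 1 sample and differ in depth, so these values describe the cells and carry no p. Without the 4 shallow cells the median over pairs was 0.098, beside 0.007 for all pairs. In ffEPSC cells it was 0.094, with 0 pairs at 0.5 or more and a highest rho of 0.46.

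The 3 positive pairs involved 5 genes: TPM1, TPM2, ACTC1, MYL9 and SORBS2. The tropomyosins TPM1 and TPM2 had a rho of 0.65 (0.48 without the shallow cells), although TPM1 was the higher and TPM2 the lower of them in ffEPSCs. ACTC1 had a rho of 0.61 with MYL9 (0.41 without the shallow cells, 0.07 within set 1 and 0.77 within set 3) and of 0.52 with SORBS2 (0.38 without them). TPM2 and TRDN were just outside the line at 0.499. The 4 genes with the widest gaps between states did not all vary together within ESCs: ACTC1 and TRDN had a rho of -0.07, and ACTC1 and S100A4 of 0.10.

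S100A4 was lower in ESC cells where several of the other genes were higher. Its rho was below 0 with 7 of the 9 others, with a median of -0.36. The share of all genes with such values was not computed. The 3 pairs at -0.5 or less were all its own: -0.70 with TPM2, -0.55 with TAGLN and -0.51 with TPM1. Over the 45 pairs that is 6.67%, near the 4.88% of all gene pairs. TPM2 and S100A4 had -0.89 within set 1, -0.70 within set 3 and -0.79 without the shallow cells. TPM1 and S100A4 had -0.36 within set 1, -0.58 within set 3 and -0.53 without the shallow cells. TAGLN and S100A4 had -0.43 within set 1, -0.87 within set 3 and -0.35 without the shallow cells. Among the 36 pairs without S100A4 the median was 0.25. In ffEPSCs TPM2 and S100A4 had a rho of 0.34, but 17 of the 25 cells there held no S100A4 read.

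**Figure D4:**
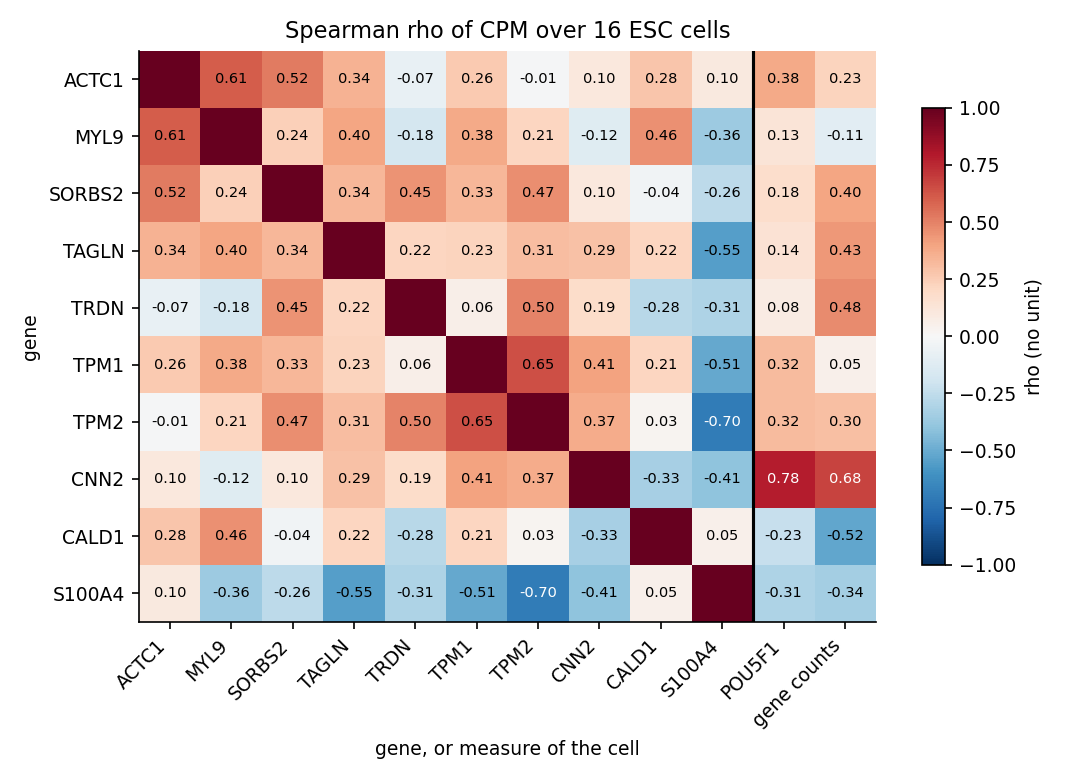
Spearman rho of CPM over the 16 ESC cells for each pair of the 10 genes, with POU5F1 and the cell's total gene counts in the last 2 columns; colour runs from -1 (blue) to 1 (red). S100A4 is negative against most genes, reaching -0.70 with TPM2, and CNN2 has its highest values with POU5F1 (0.78) and gene counts (0.68).

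CNN2 followed the cells that stand apart. It was at 15.99 to 82.7 CPM in the 4 shallow ESC cells and at 100 to 713 in the other 12, the one gene of the 10 for which the groups did not overlap. Of all genes 5.58% lay wholly lower in the 4 cells and 3.9% wholly higher. Its rho was 0.68 with gene counts per cell and 0.78 with POU5F1 (0.49 without the 4 cells). A further ESC cell of set 3, at 16741159 counts and so above the line, was also low, with CNN2 at 100 CPM and POU5F1 at 496.

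The gene most like CNN2 over ESC cells was ACTN1, the alpha-actinin that cross-links actin at adhesions, at a rho of 0.98, followed by DNMT3A, a DNA methyltransferase, at 0.97. With ACTN1 the rho was 0.96 without the 4 cells, 0.96 within set 1 and 0.97 within set 3. ACTN1 was picked as the highest over these same cells, so the values in parts of them are no separate support. The rho in ffEPSC cells was not computed. The ffEPSC cells with the lowest and highest CNN2 (174 and 506 CPM) had ACTN1 at 127 and 128 CPM. Of 6350 genes compared, 33 had a rho of 0.9 or more with CNN2, where each of the other 8 genes compared had 0. Among 97 genes of the lists at 5 CPM in ESCs, 9 (9.28%) lay wholly lower in the 4 cells: ACTN1, CFL1, DIAPH1, FLNA, PFN2, PPP1R12A, PXN, TAGLN2 and TPM3. Another 8 (8.25%) lay wholly higher: ARPC3, MYL12A, MYL12B, MYL6, PFN1, S100A10, S100A11 and TMSB10. These genes were named after their values were seen.

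**Figure D5:**
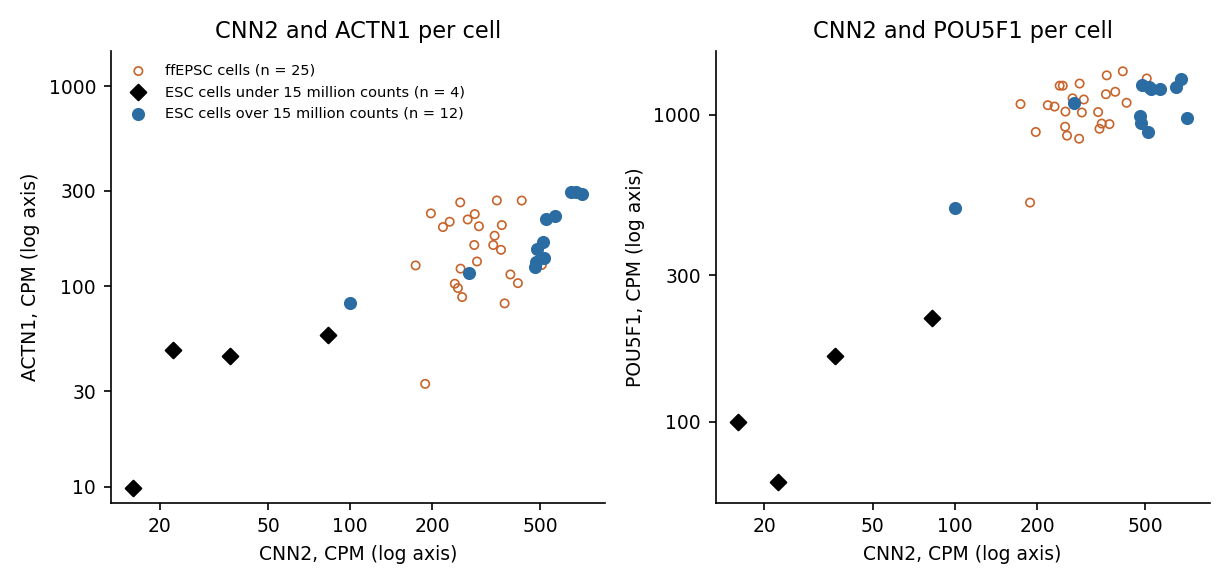
CNN2 (horizontal axis) against ACTN1 (left) and POU5F1 (right) per cell, in CPM on log axes. Black diamonds are the 4 ESC cells under 15000000 gene counts, blue circles the other 12 ESC cells and open circles the 25 ffEPSC cells. The 4 cells lie at 15.99 to 82.7 CPM of CNN2 and 63.5 to 218 CPM of POU5F1, below the other ESC cells in both.

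For the remaining genes the most similar genes over ESC cells reached lower values. TAGLN was most like RNF146 (rho 0.89) and CHD7 (0.79), which were also lower in ffEPSCs (-1.19 and -1.04). CALD1 was most like CBX5 (0.89) and NAXE (0.85), TPM1 like RPS6KB1 (0.84) and PSMC3IP (0.82), and S100A4 like ZFAS1 (0.82) and OFD1 (0.80). ZFAS1 and OFD1 were higher in ffEPSCs (0.31 and 0.78) though S100A4 was lower, so likeness over ESC cells did not always go with the same direction between states. TPM2 was most like DDX31 (0.81) and ARPC5L (0.80), a subunit of the actin-branching ARP complex. MYL9 was most like TENM3 (0.80) and AFF4 (0.79), SORBS2 like RHOT1 (0.80) and SEC14L1 (0.74), and ACTC1 like GABPB1-AS1 (0.76) and PTK2 (0.72, tied with XPO4), the focal adhesion kinase. Each pair of names is the highest of 6350 genes over 16 cells, and no function is read from it. TRDN, at 1 CPM or more in 10 ESC cells, was not compared.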

How the data were processed

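Polyadenylated RNA of single H9 cells was made into Smart-seq2 libraries, per the labels. The authors deposited 1 table of whole-number gene counts per state, not normalized. Tools in the submitters' processing notes, which give them no role, are HISAT2 2.2.1, Subread 2.0.6 with featureCounts, SAMtools 1.6 and bcl2fastq, beside GRCh38 and CHM13 (telomere to telomere) as builds. For annotation, strand use and multi-mapping reads the sources used here state nothing. The median share of non-zero counts that were even was 98.5% in ESC and 98.4% in ffEPSC cells, so fragments are fewer than counts. Repeat tables were not used here.

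Counts were summed over the 16 ESC (265412149 counts) or 25 ffEPSC cells (374101290) and divided by the total. Ratios added 1 CPM; genes needed 5 CPM in either state. Intervals are 95%, exact Poisson for levels and exact conditional binomial for folds. No cell was removed and doublets were not called. Detection was also computed after thinning to 11000000 counts. Gene positions are from GENCODE 29 on GRCh38, matching 21289 genes. The steps were tested on simulated data. Python 3.11.15, pandas 2.3.3 and scipy 1.17.1 were used.

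The 10 genes and the lists were chosen with earlier results of these data known. Named besides the 10 were up to 4 genes per list at 20 CPM and 2-fold, a set of genes named in any case, and the 2 genes with the highest rho to each gene; genes named after their values were seen are marked. Alternatives were another pseudocount, no floor, other summaries of cells, single sets, fewer ESC cells, other scaling and other correlations. Results of 1 list and of some single genes are not reported here.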

Additional observations from a re-analysis of the deposited data

How the results depend on the processing

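The count of genes at least 2-fold lower stayed between 5 and 7. The lowest counts came without the 4 shallow ESC cells and without the ESC cell with the highest level. In both settings CALD1 and MYL9 moved just inside 2-fold. The median ratio of the 10 genes, -1.44, was -1.23 from the median of cells, -2.21 in set 1, -2.76 in set 3, -1.51 with 0.1 CPM added, -1.34 without the ESC cell with the highest level and -1.80 after subtracting each chromosome's median. The 6 other list genes lower by 2-fold became 15 in set 1, 11 in set 3 and 11 with no floor. The share of all genes that low also rose, from 5.84% to 11.3% in set 1 and 14.8% in set 3. That share was not computed with no floor. The median rho of 0.21 was 0.15 as Pearson r of log2 values, 0.098 without the shallow cells, 0.25 in set 3, 0.26 centred on each set, 0.094 in ffEPSC cells and 0.22 among genes at 1 CPM in 12 cells. TPM1, at 0.37, turned to -0.0731 in set 3, with 2 ffEPSC cells there. The causes were not tested. The median of gene ratios used for scaling was 0.04 on the log2 scale. No paired analysis was possible because each state is 1 sample, and set numbers are shared by cells and not by replicates. Depth limits statements near 0, where 3 counts are 0.0113 CPM in ESCs and 0.00802 CPM in ffEPSCs.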

Other observations

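Below the floor of 5 CPM, 2 further S100 genes had reads in ESCs and none in ffEPSCs. S100A14, an epithelial S100 protein, was at 3.77 CPM in ESCs, in 6 of 16 cells at 1 CPM or more. It had 0 counts in 25 ffEPSC cells, 470-fold lower if set against 3 counts over the ffEPSC cells. S100B was at 1.19 CPM in ESCs, in 4 cells, and also had 0 counts in ffEPSCs, 148-fold lower on the same basis. Both folds take counts as independent. Most non-zero counts were even, so fragments are fewer than counts and the true bounds are smaller. Both genes were named after their values were seen. How many of all genes below the floor had ESC reads and 0 ffEPSC counts was not computed, so nothing about the S100 family is read from them.

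Other muscle actins were patchy in both states. ACTA1, the skeletal muscle actin, was at 12.4 CPM in ESCs and 11.6 in ffEPSCs (ratio -0.10), with 11 of 16 and 19 of 25 cells at 1 CPM or more. ACTG2, the enteric smooth muscle actin, was at 7.98 and 3.72 CPM, in 7 cells of each state, with a highest cell of 48.4 CPM in ESCs and 28.9 in ffEPSCs. In sets 1 and 3 the ratios of ACTA1 were -1.74 and -2.94, unlike the summed value over all cells. These genes were named after their values were seen.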
